A study of Mus musculus with 4 samples.

Results

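Striatal projection neurons that carry Drd2 and Adora2a were a small minority of the nuclei released from dissected mouse lateral septum (LS), and 263 of 48940 nuclei within the limits on genes, UMIs and mitochondrial share were chosen by their counts. A nucleus was selected when it held at least 2 UMIs of Rarb, 3 of Pde10a, 1 of Adora2a and 1 of Drd2, with no UMI of Drd1 and fewer than 3 of St18. A UMI (unique molecular identifier) stands for 1 captured RNA molecule. These 6 genes are given as descriptions and received no test. The limits were 200 to 6000 genes, under 2% of UMIs from mitochondrial genes and at least 2000 UMIs.

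Striatal projection neurons, also called medium spiny neurons, are GABAergic cells that form most of the striatum, which lies lateral to the LS. They fall into a direct pathway class, which carries the Gs-coupled dopamine receptor Drd1 and the peptides substance P and dynorphin, and an indirect pathway class, which projects to the globus pallidus and carries the Gi-coupled dopamine receptor Drd2, the Gs-coupled adenosine receptor Adora2a and enkephalin. In the indirect class dopamine lowers cyclic AMP through Drd2 while adenosine raises it through Adora2a. Rarb encodes a retinoic acid receptor of striatal neurons and Pde10a a phosphodiesterase that breaks down cyclic nucleotides in them.

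Nuclei came from the snap-frozen LS of male mice aged 6 to 8 weeks, with 3 mice pooled into each library. The 2 C57J (C57BL/6JNifdc) libraries, C57J 1 and C57J 2, were set against 1 library of nude mice, which lack T cells and are bred on BALB/c, and 1 library of BALB/c mice. C57J 1 was labelled batch 1 and the other 3 libraries batch 2, so batch and group overlap for that library. The homogenisation buffer of every library contained Actinomycin D, which blocks transcription. The study compared these backgrounds to relate immune and genetic background to cell states of the LS. The library is the replicate here, and p-values measure only the spread between libraries of pooled mice. In the background contrast this spread lay between C57J libraries of different batches and between 1 nude and 1 BALB/c library. It is therefore not the spread between like pools. Strings of 4 values give C57J 1 first, then C57J 2, then nude and last BALB/c, and levels are in CPM, in which a gene's UMIs are divided by all UMIs of the class in the same library and put on the usual scale, where 3 UMIs of the Drd2 nuclei were worth 2.88, 10.4, 21.4 and 3.98 CPM.

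The 4 matrices held 17025, 14092, 14697 and 12558 barcodes with 72912922 to 125998527 UMIs per library. BALB/c was the deepest library, with a median of 9005 UMIs per nucleus within the limits against 5462 to 6362 in the other 3. Pairs of libraries shared 29 to 63 barcodes, and none of these belonged to a selected nucleus in both libraries.

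The selected nuclei numbered 133, 53, 17 and 60. They made up 0.979% (95% exact interval 0.821 to 1.16), 0.474% (0.355 to 0.619), 0.139% (0.0809 to 0.222) and 0.503% (0.384 to 0.648) of the nuclei within the limits, and these intervals cover counting error only. The nude library had the lowest share and C57J 1 the highest, while C57J 2 and BALB/c had overlapping intervals, so at the depth of the files the C57J libraries and the other 2 libraries overlapped. After each nucleus was thinned at random to 2000 UMIs, 16, 15, 3 and 4 nuclei met the rule, or 0.118%, 0.134%, 0.0245% and 0.0336%. At this equal depth both C57J libraries lay above nude and BALB/c and C57J 2 was highest. The interval of C57J 1 (0.0674 to 0.191) still overlapped those of nude (0.00505 to 0.0715) and BALB/c (0.00915 to 0.0859). That of C57J 2 (0.0750 to 0.221) overlapped the interval of BALB/c but not that of nude. No exact permutation test of 2 libraries against 2 can give a two-sided p below 0.333. Neurons of the LS, chosen by at least 3 UMIs of Trpc4 with Gad1 or Gad2 and no Rarb, Adora2a or Mog, made up 29.4%, 31.0%, 38.1% and 31.8% of the same nuclei, highest in the nude library where the Drd2 share was lowest. The part of the dissection in the Drd2 share was not tested.

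Drd1 nuclei, chosen by the mirrored rule (Drd1 at least 1, with no Drd2 and no Adora2a), numbered 356, 128, 55 and 152. There were 2.68, 2.42, 3.24 and 2.53 Drd1 nuclei per Drd2 nucleus. As a share of both classes, Drd2 nuclei made up 27.2% (23.3 to 31.4), 29.3% (22.8 to 36.5), 23.6% (14.4 to 35.1) and 28.3% (22.3 to 34.9), and all 4 intervals overlapped. The ratio is not a count of the cells of each pathway, because the Drd2 rule asked for UMIs of 2 receptors and the Drd1 rule for 1.

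Among all nuclei with the Rarb, Pde10a and St18 values of the rule, 8.69%, 7.67%, 3.47% and 7.53% met the whole Drd2 rule. A further 20.5%, 19.4%, 18.2% and 18.8% held Drd2 or Adora2a but not both, with no Drd1. No UMI of any of the 3 receptors was found in 43.6%, 52.2%, 65.9% and 52.9%, most in the nude library. All 3 receptors together were found in 5, 3, 0 and 3 nuclei. Membership depended on depth, as the thinned counts show.

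**Figure D1:**
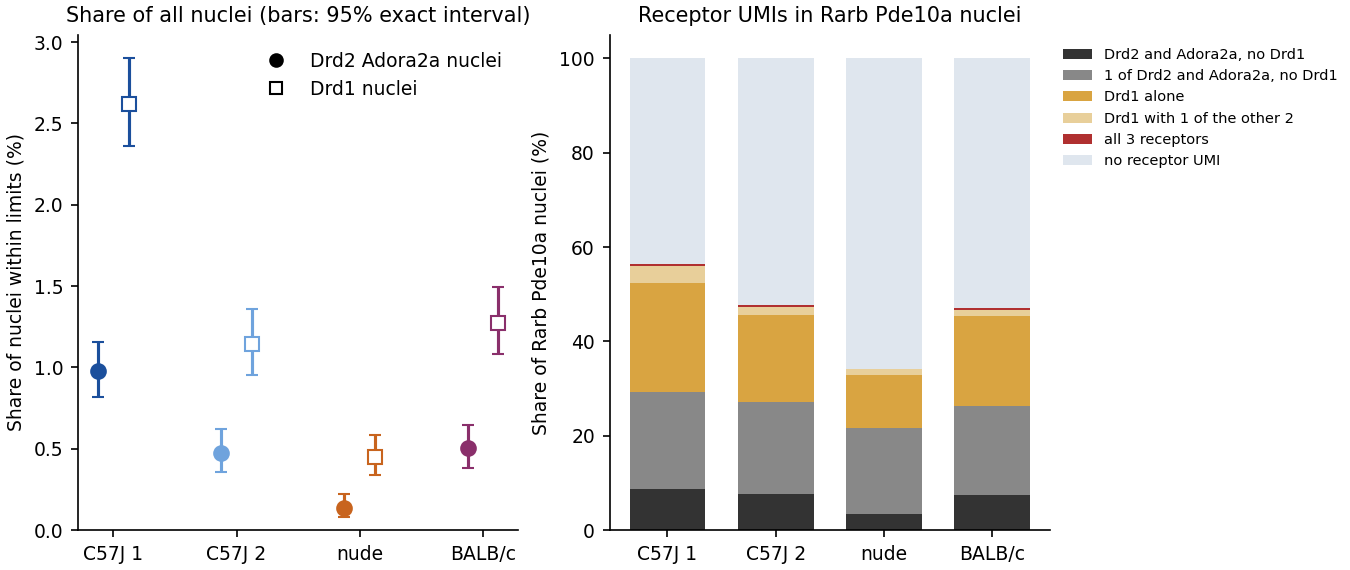
Left, share of nuclei within the limits (%, y axis) that were Drd2 Adora2a nuclei (filled circles) or Drd1 nuclei (open squares) in each of the 4 libraries, with 95% exact binomial intervals as bars; the Drd2 share ran from 0.139% in nude to 0.979% in C57J 1. Right, receptor UMIs in nuclei with Rarb and Pde10a as stacked shares (%); the segment without a receptor UMI ran from 43.6% in C57J 1 to 65.9% in nude.

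The Adora2a limit set the membership more than any other. Selected nuclei had a median of 1 Adora2a UMI in every library, and 97, 42, 15 and 35 of them had exactly 1, just inside the limit. Just outside it, 289, 121, 88 and 143 nuclei met every condition except Adora2a. Only 25, 13, 1 and 7 nuclei failed on Drd2 alone, 12, 10, 3 and 3 on Rarb alone and 8, 1, 0 and 3 on Pde10a alone. With at least 2 UMIs of each receptor, a stricter limit used below as an alternative, 31, 8, 2 and 24 nuclei met the rule. The selected nuclei held a median of 3, 2, 2 and 4.5 Drd2 UMIs, 11, 8, 8 and 17 Rarb UMIs and 12, 10, 11 and 22.5 Pde10a UMIs. In mature oligodendrocytes, which should lack Adora2a, 1.66%, 0.250%, 0% (0 of 182, which allows a share of up to 1.65%) and 0.260% of nuclei held an Adora2a UMI at medians of 3563, 3008.5, 2826 and 4365 UMIs, against 6849, 5067, 7643 and 11446 UMIs in the Drd2 nuclei. Drd2 UMIs were found in 5.59%, 4.75%, 3.30% and 3.38% of the oligodendrocytes.

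The label was checked against genes that the rule did not use. Of 16 genes of striatal projection neurons, 15 reached 10 CPM in Drd2 nuclei or in LS neurons, and 14 of the 15 were higher in Drd2 nuclei than in LS neurons in all 4 libraries, with a median within-library log2 ratio of 2.31 (after adding 1 CPM) against a median of -0.10 over 9551 genes. Summed over the list, the level was 18027, 18726, 17043 and 20546 CPM in Drd2 nuclei and 6253 to 6992 CPM in LS neurons. Phactr1, a regulator of protein phosphatase 1 and actin, stood at 10623, 10916, 9751 and 12034 CPM in Drd2 nuclei and at 4087, 3910, 4146 and 4487 CPM in LS neurons. Ppp1r1b encodes DARPP-32, the phosphatase inhibitor through which dopamine acts on these cells. Its level was 50.9, 27.8, 7.13 and 70.3 CPM in Drd2 nuclei and 5.34, 1.94, 1.27 and 2.43 CPM in LS neurons, and the nude value was 1 UMI. These are descriptions of nuclei chosen on striatal genes.

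Marker lists of other cell types were near 0 or at levels also found in other classes of nuclei. The 13 LS neuron markers summed to 968, 724, 1091 and 579 CPM in Drd2 nuclei, to 2981 to 3216 CPM in LS neurons and to 1169, 1090, 1274 and 698 CPM in oligodendrocytes, so the Drd2 nuclei lay below the oligodendrocytes in every library. A UMI of Trpc4, which is on that list and in the rule for LS neurons, was nevertheless common in Drd2 nuclei. It was found together with Penk in 44, 11, 5 and 17 of them and without Penk in 11, 9, 3 and 4. The 6 oligodendrocyte markers summed to 486, 480, 314 and 307 CPM in Drd2 nuclei against 9199 to 13248 CPM in oligodendrocytes. The 6 astrocyte markers summed to 612, 355, 264 and 366 CPM. The 13 interneuron and cholinergic markers summed to 60.5, 80.0, 85.5 and 46.4 CPM, the 5 glutamatergic markers to 9.60, 17.4, 7.13 and 3.98 CPM, the 5 microglia markers to 31.7, 38.3, 14.3 and 21.2 CPM and the 6 vascular and ependymal markers to 5.76, 0, 0 and 3.98 CPM. Chat, Vip, Slc17a7, Neurod6, Cldn5, Fam216b and Dcn were at 0 in the Drd2 nuclei of all 4 libraries. The doublet score marked 28 of 133, 4 of 53, 5 of 17 and 6 of 60 selected nuclei. Of all nuclei within the limits it marked 1476 of 13581, 1002 of 11191, 1201 of 12251 and 1136 of 11917. The marked share was thus well above that of all nuclei in C57J 1 and nude, and near it in C57J 2 and BALB/c.

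**Figure D2:**
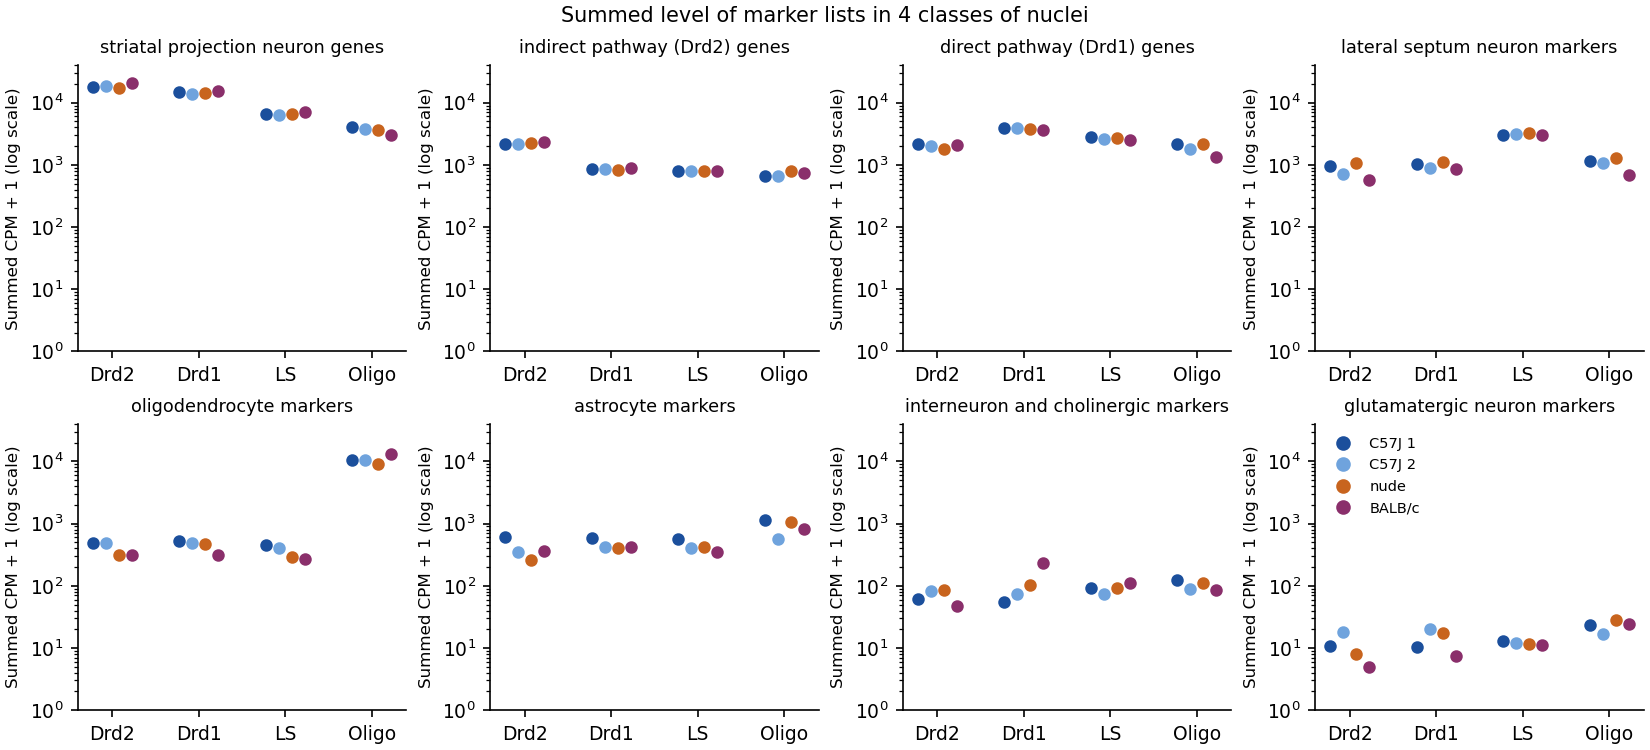
Summed level of 8 marker lists (CPM + 1, log y axis) in Drd2 nuclei, Drd1 nuclei, LS neurons and oligodendrocytes, with 1 point per library. Striatal genes were highest in the 2 striatal classes, indirect pathway genes in Drd2 nuclei (2153 to 2290 CPM), and LS neuron markers in LS neurons.

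Drd2 nuclei were next described against Drd1 nuclei, the class most like them. Enkephalin, the kainate receptor Grik3, adenosine-handling enzymes and a subunit of soluble guanylate cyclase were higher in Drd2 nuclei in all 4 libraries, and substance P, dynorphin, Drd3, Pbx3 and Foxp2 were lower. Because the rule separated the 2 classes by their receptors, no test was run on this contrast. Of the 14 indirect pathway genes, 12 reached 10 CPM in either class, and 9 of the 12 were higher in Drd2 nuclei in all 4 libraries and none lower, with a median log2 ratio of 1.83. Of the 12 direct pathway genes, 9 reached that level, and 7 were lower in Drd2 nuclei in all 4 libraries and none higher, with a median of -1.69. Over 9418 genes, 777 were higher and 1231 lower in all 4 libraries, with a median of -0.06. The lists are known markers of these pathways.

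Among the peptides, Penk, which encodes the precursor of the enkephalins, stood at 275, 198, 114 and 337 CPM in Drd2 nuclei and at 25.2, 27.2, 11.7 and 43.9 CPM in Drd1 nuclei, a median log2 ratio of 3.05. A Penk UMI was found in 107 of 133, 27 of 53, 8 of 17 and 52 of 60 Drd2 nuclei, or 80.5%, 50.9%, 47.1% and 86.7%, and in 13.2%, 11.7%, 7.27% and 21.1% of Drd1 nuclei. In oligodendrocytes the share was 10.8%, 6.00%, 7.14% and 8.83%, close to the Drd1 share in the nude library, though the Drd1 nuclei there had a median of 5992 UMIs against 2826 in oligodendrocytes. At 2000 UMIs per nucleus, 44.4%, 32.1%, 29.4% and 40.0% of Drd2 nuclei and 4.21%, 6.25%, 0% (up to 5.45% allowed) and 5.26% of Drd1 nuclei held Penk, and the nude library still had the lowest share of Drd2 nuclei. Tac1, the precursor of substance P, stood at 31.7, 20.9, 7.13 and 92.9 CPM in Drd2 nuclei and at 158, 124, 84.2 and 231 CPM in Drd1 nuclei. Its level in oligodendrocytes, 28.8, 13.1, 6.88 and 9.62 CPM, was near that of the Drd2 nuclei of C57J 1 and nude and far below that of BALB/c. Penk and Tac1 were found together in 19, 2, 0 and 8 Drd2 nuclei. Pdyn, the precursor of dynorphin, was at 10.6, 0, 7.13 and 0 CPM in Drd2 nuclei and at 50.8, 28.4, 23.4 and 65.6 CPM in Drd1 nuclei. A count of 0 in the Drd2 nuclei allows a level as high as 3 UMIs would give, which is 10.4 CPM for C57J 2 and 3.98 CPM for BALB/c, and the nude value of Pdyn was 1 UMI.

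Genes that handle adenosine and cyclic nucleotides stood apart between the 2 classes in both directions. Nt5e, which encodes the ectonucleotidase that forms extracellular adenosine, was at 76.8, 52.2, 35.6 and 57.1 CPM in Drd2 nuclei and at 11.4 to 21.0 CPM in Drd1 nuclei. Adk, adenosine kinase, was at 286, 223, 335 and 223 CPM against 86.0, 78.0, 95.8 and 82.4 CPM. Gucy1a1, a subunit of the nitric oxide receptor guanylate cyclase, was at 245, 257, 128 and 248 CPM against 49.7, 72.1, 44.4 and 90.0 CPM, with no overlap of the classes for any of the 3 genes. Of 48 genes of dopamine and cyclic AMP signalling, 45 reached 10 CPM, and 17 were higher and 6 lower in Drd2 nuclei in all 4 libraries, with a median log2 ratio of 0.06. Pde7b, a cyclic AMP phosphodiesterase, was at 973, 922, 813 and 1249 CPM against 528, 508, 425 and 586 CPM. Adcy2, an adenylyl cyclase, was lower, at 114, 69.6, 99.8 and 78.3 CPM against 258, 281, 257 and 230 CPM.

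Several receptors other than those of the rule also differed in level. Gpr6, a constitutively active Gs-coupled receptor of indirect pathway neurons, was at 27.8, 24.4, 7.13 and 50.4 CPM in Drd2 nuclei and at 6.56, 3.55, 4.68 and 11.4 CPM in Drd1 nuclei, and was found in 22 of 133, 7 of 53, 1 of 17 and 25 of 60 Drd2 nuclei. Oprd1, the delta opioid receptor at which enkephalin acts, was at 20.2, 17.4, 21.4 and 21.2 CPM against 0.345, 1.18, 0 and 2.17 CPM, and the nude value rests on 3 UMIs. Oprm1, the mu opioid receptor, lay the other way, at 55.7, 76.5, 42.8 and 71.7 CPM against 117, 136, 171 and 175 CPM. Drd3, a dopamine receptor of the ventral striatum, was at 17.3, 13.9, 0 (up to 21.4 allowed) and 6.63 CPM against 58.7, 49.6, 49.1 and 53.6 CPM. The Drd3 level of Drd2 nuclei was close to that of oligodendrocytes, which ran from 7.33 to 11.3 CPM. The kainate receptor subunit Grik3 was at 333, 463, 371 and 309 CPM against 85.6, 88.6, 93.5 and 62.3 CPM, while the oligodendrocyte level of Grik3 was 85.9, 97.8, 90.8 and 62.5 CPM. The Drd1 level of Grik3 was thus at the oligodendrocyte level, and the Drd2 level was above both.

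Among transcription factors, Foxp1 was at 2110, 2226, 2324 and 2427 CPM in Drd2 nuclei and at 1034, 1068, 1075 and 1336 CPM in Drd1 nuclei. Its relative Foxp2 lay the other way, at 315, 261, 820 and 445 CPM against 1485, 1131, 968 and 1023 CPM. Pbx3, a homeobox factor, was at 178, 170, 221 and 285 CPM against 899, 597, 725 and 805 CPM. Dach1, a transcriptional cofactor, was at 281, 320, 221 and 458 CPM against 95.6, 85.1, 56.1 and 102 CPM. Over 29 striatal transcription factors with 10 CPM or more, 7 were higher and 12 lower in Drd2 nuclei in all 4 libraries, with a median of -0.34. The other genes of largest ratio included Sgcz, a sarcoglycan of the membrane, at 3813, 4474, 3785 and 3700 CPM against 970, 931, 736 and 792 CPM. Sh3rf2, an E3 ubiquitin ligase scaffold, was at 75.8, 69.6, 28.5 and 66.3 CPM against 14.2, 4.73, 2.34 and 19.5 CPM. The gene with the smallest ratio was Adarb2, which encodes a catalytically inactive member of the RNA-editing deaminases. It was at 96.9, 163, 249 and 78.3 CPM in Drd2 nuclei and at 1083, 1070, 1080 and 1001 CPM in Drd1 nuclei, and the oligodendrocyte level of Adarb2, 218, 150, 220 and 151 CPM, was above the Drd2 level in C57J 1 and BALB/c and below it in C57J 2 and nude. Median log2 ratios of the 10 genes named as highest ran from 1.61 (Adk) to 3.05 (Penk) and also took in L3mbtl4 (1.98) and Vav3 (1.74). Those of the 10 named as lowest ran from -3.09 (Adarb2) to -1.72 (Gm28905) and took in Cntnap3 (-2.56), Gm14133 (-2.04), Gnb4 (-1.84), Reln (-1.80) and Grm8 (-1.77).

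**Figure D3:**
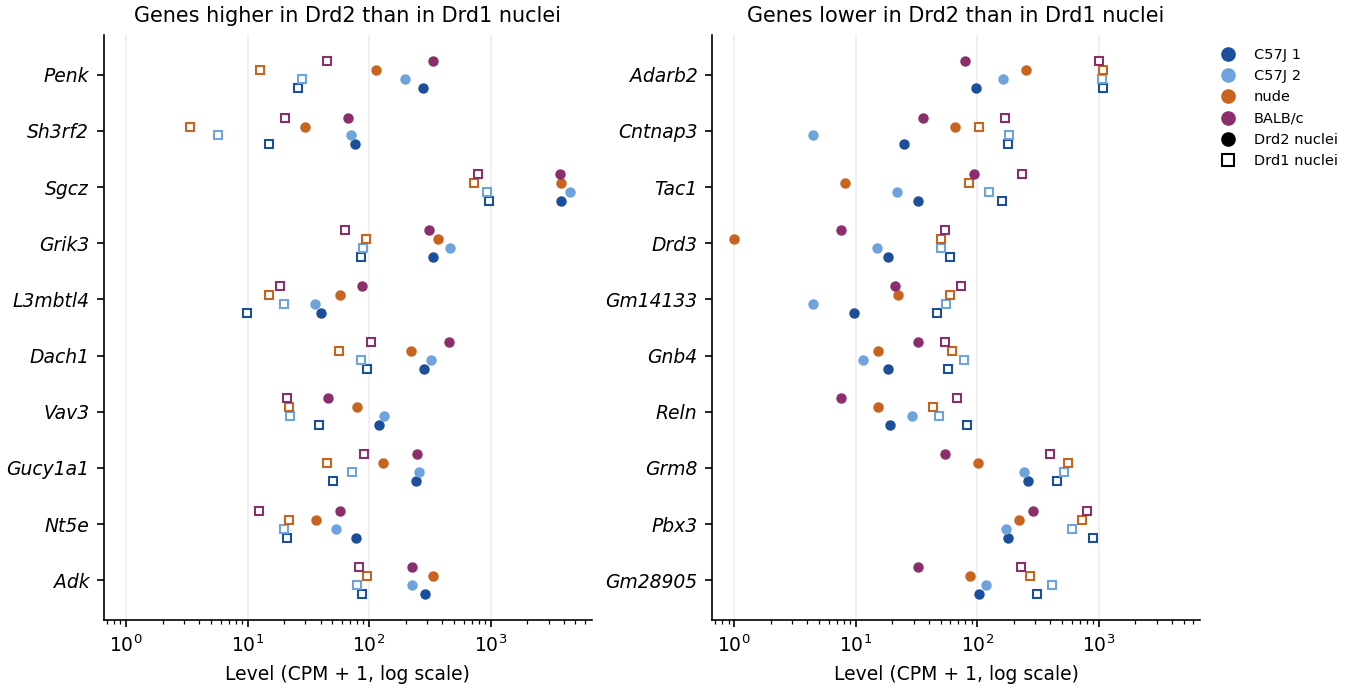
Levels (CPM + 1, log x axis) of the 10 genes with the largest and the 10 with the smallest median ratio between Drd2 nuclei (filled circles) and Drd1 nuclei (open squares), 1 pair of points per library in colour. Within each library the 2 classes keep the same order for every gene shown, as the choice of these genes requires.

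Promoter sequence was read for genes of this contrast from RefSeq (build GRCm38.p6) over the 250 bases before the gene start. The cyclic AMP response element TGACGTCA, which reads the same on both strands, was found in 478 of 27025 genes of the table (1.77%), and its CGTCA part, on either strand and contained in the full element, in 5347 (19.8%). Among the indirect pathway genes, 11 were in the table, 1 held the full element and 4 the shorter one. Among named genes with the highest Drd2 to Drd1 ratios 7 were in the table, with 0 full and 1 short match, and among the lowest 8, with 0 full and 4 short matches. Gpr6 (chr10:41072291-41072540, minus strand) and Tac1 (chr6:7554811-7555060, plus strand) are shown because they are a receptor and a peptide gene that lay on opposite sides of the contrast, with matches in capitals.
Gpr6: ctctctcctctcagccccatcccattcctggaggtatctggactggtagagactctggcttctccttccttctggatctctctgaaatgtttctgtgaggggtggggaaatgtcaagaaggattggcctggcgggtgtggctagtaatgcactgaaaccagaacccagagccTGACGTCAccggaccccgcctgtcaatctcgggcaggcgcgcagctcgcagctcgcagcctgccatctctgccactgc
Tac1: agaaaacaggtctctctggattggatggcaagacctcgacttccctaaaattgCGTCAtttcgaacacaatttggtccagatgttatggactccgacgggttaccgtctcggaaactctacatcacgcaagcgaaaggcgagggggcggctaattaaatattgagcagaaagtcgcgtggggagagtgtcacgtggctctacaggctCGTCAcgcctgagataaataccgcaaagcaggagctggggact
The Gpr6 match begins 78 bases before the gene start and the Tac1 matches 197 and 43 bases before it. A match is a description of the letters and not evidence of binding.

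Against LS neurons the genes of largest ratio were Sh3rf2 (median log2 ratio 5.32) and Stard5 (5.19). Stard5, which encodes a sterol-binding protein, was at 172, 167, 114 and 214 CPM in Drd2 nuclei and at 4.01, 3.34, 3.48 and 2.67 CPM in LS neurons. Drd1 nuclei had 164, 108, 173 and 145 CPM of Stard5, so this gene was shared by both striatal classes. Ankrd33b (4.83), Gm49906 (4.67), 6530403H02Rik (4.62) and Car12, a carbonic anhydrase (4.56), followed. The lowest ratios belonged to Cpa6 (-3.51), Fstl1 (-3.42), Col23a1 (-3.41), Ano1 (-3.37), Gpc3 (-3.36) and Zic4 (-3.34), of which Cpa6 and Zic4 are on the list of LS neuron markers. Zic4, a zinc finger factor of septal neurons, was at 24.0, 6.96, 14.3 and 10.6 CPM against 96.9, 91.9, 134 and 133 CPM in LS neurons and 41.3, 47.7, 60.5 and 47.3 CPM in oligodendrocytes.

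The background contrast set nude and BALB/c against C57J within the Drd2 nuclei. Of 6880 genes tested, 2 were called higher (0.0291%) and 2 lower (0.0291%) by the edgeR quasi-likelihood test on UMIs summed per library, where a call needed a p under 0.05 after Benjamini-Hochberg adjustment and a log2 fold change beyond 0.5 in size. At an unadjusted p below 0.05 there were 392 genes, and the median log2 fold change was -0.00. DESeq2 called 1 gene higher and 0 lower, with 82 at an unadjusted p below 0.05. The count rested on the libraries: 5 higher and 2 lower were called without C57J 1, which is the contrast within batch 2, 0 and 0 without C57J 2, 41 and 49 without nude and 42 and 14 without BALB/c.

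Cfap54 (ENSMUSG00000020014, GRCm38 chr10:92775619-93081618, minus strand), a gene of the central apparatus of motile cilia, was the gene called higher by both tools. Its level was 65.3, 80.0, 378 and 285 CPM, and a UMI was found in 45 of 133, 14 of 53, 14 of 17 and 56 of 60 nuclei. The nude and BALB/c libraries lay above both C57J libraries, with a log2 fold change of 2.21 ± 0.26 (SE, 2 libraries against 2) and an adjusted p of 0.00343 by the edgeR quasi-likelihood test. The same order was found in Drd1 nuclei (77.3, 69.7, 351 and 328 CPM), in LS neurons (72.7, 78.9, 264 and 263 CPM) and in oligodendrocytes (34.6, 30.4, 111 and 73.3 CPM). The difference of the contrast between Drd2 and Drd1 nuclei was 0.06 ± 0.27 for Cfap54 (adjusted p of 1.00 by edgeR). The call was lost without C57J 2 and after thinning, and the log2 fold change then was 2.34 and 1.75.

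1500004A13Rik (ENSMUSG00000098912, GRCm38 chr3:88782943-88832547, minus strand), annotated as a processed transcript with no protein, was at 96.0, 83.5, 7.13 and 17.3 CPM. Both C57J libraries lay above the other 2 libraries, with a log2 fold change of -2.53 ± 0.38 and an adjusted p of 0.0209 by edgeR, and the nude value was 1 UMI. It had the same order in Drd1 nuclei (108, 125, 11.7 and 12.5 CPM), LS neurons (114, 129, 15.99 and 14.0 CPM) and oligodendrocytes (193, 269, 6.88 and 12.8 CPM). The 1500004A13Rik call was lost with DESeq2, without either C57J library and with at least 2 UMIs of each receptor, with log2 fold changes from -3.24 to -2.41.

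Mpp7 (ENSMUSG00000057440), a scaffold protein of cell junctions, was at 34.5, 38.3, 78.4 and 218 CPM and was found in 30 of 133, 7 of 53, 8 of 17 and 49 of 60 nuclei. BALB/c was highest and nude second, with a log2 fold change of 2.30 ± 0.37 and an adjusted p of 0.0258 by edgeR. In Drd1 nuclei Mpp7 was at 20.4, 30.7, 44.4 and 98.6 CPM, in LS neurons at 27.0, 24.9, 39.1 and 52.7 CPM, and in oligodendrocytes at 27.9, 24.5, 20.6 and 17.4 CPM, where the order was the reverse. The contrast of Mpp7 was larger in Drd2 nuclei than in LS neurons by 1.40 ± 0.31 (adjusted p of 0.00554 by edgeR). Its difference between Drd2 and Drd1 nuclei was 0.52 ± 0.37 and was not called. Without BALB/c the log2 fold change in Drd2 nuclei was 1.15 and not called, and without C57J 2 it was 2.30 and not called. The Mpp7 call was also lost with DESeq2 (2.16) and with at least 2 UMIs of each receptor (2.14), a limit that left 2 nude nuclei. The Mpp7 difference from LS neurons was called without nude but not without any other library, and was 0.50 without BALB/c.

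Grm8 (ENSMUSG00000024211, GRCm38 chr6:27275119-28135178, minus strand), a Gi-coupled metabotropic glutamate receptor, was at 263, 244, 99.8 and 53.1 CPM, with both C57J libraries above the other 2 libraries. The log2 fold change was -1.95 ± 0.30 with an adjusted p of 0.0209 by edgeR. In C57J 1, 50 of 274 Grm8 UMIs came from 1 nucleus that the doublet score marked, and without marked doublets the log2 fold change was -1.33 and not called. The Grm8 call was also lost with DESeq2 (-1.84), after thinning (-1.40) and without C57J 2 (-1.94). The level of Grm8 in oligodendrocytes was 449, 471, 574 and 286 CPM, above that of the Drd2 nuclei in all 4 libraries, and LS neurons had 1010 to 1189 CPM. Expression of Grm8 by the Drd2 nuclei themselves is therefore not read from these levels, and the part of RNA from other cells in the Grm8 contrast was not tested.

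**Figure D4:**
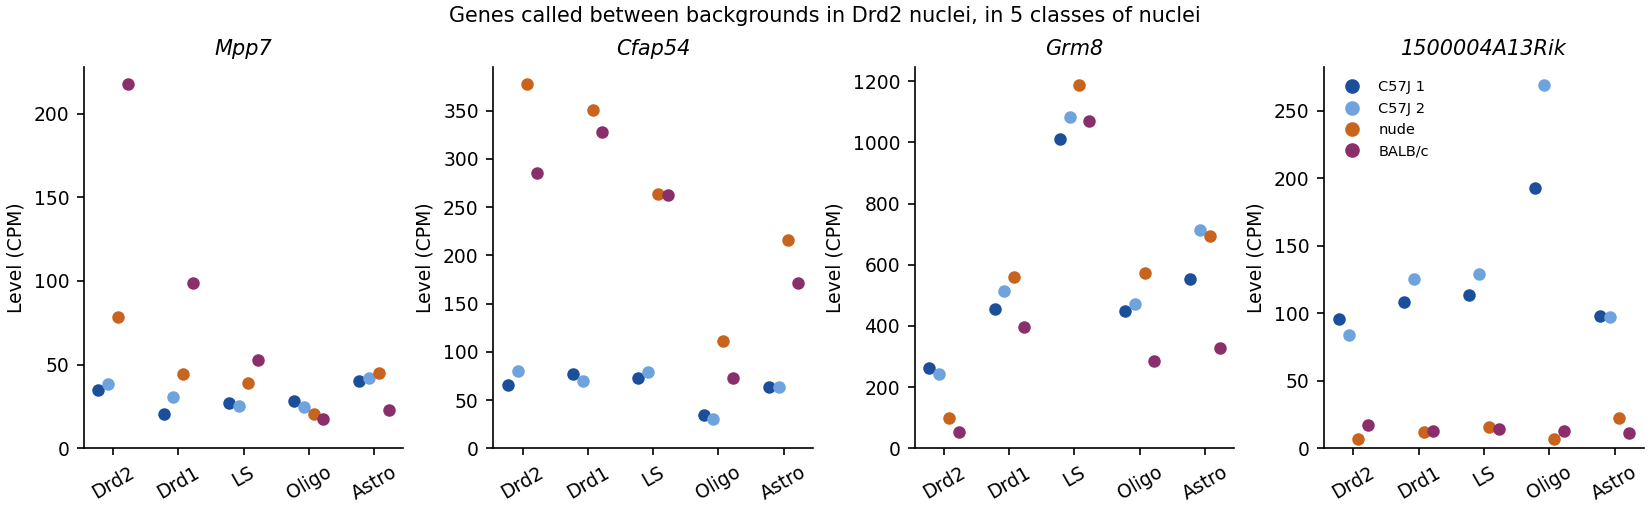
Levels (CPM, y axis from 0) of the 4 genes called between backgrounds in Drd2 nuclei, shown in 5 classes of nuclei with 1 point per library. Cfap54 and 1500004A13Rik keep the same order of backgrounds in every class, while Grm8 differs between backgrounds in Drd2 nuclei and is higher in all other classes.

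The fixed gene lists held 1 called gene, and a larger share of their genes than of all genes had an unadjusted p below 0.05. They had 354 genes, of which 235 were tested, and Grm8 was the 1 gene called by edgeR, while DESeq2 called 0 of them. At an unadjusted p below 0.05 there were 27 of the 235 by edgeR, 9 higher and 18 lower (11.5% against 5.70% of all genes). By DESeq2 there were 7 (2.98% against 1.19% of all genes). Of 15 tested striatal projection neuron genes 0 were called and 0 had an unadjusted p below 0.05, with a median log2 fold change of 0.05. Of 11 indirect pathway genes 0 were called and 1 had an unadjusted p below 0.05, again with a median of 0.05. Penk had a log2 fold change of 0.10 ± 0.32 and Gpr6 of 0.60 ± 0.48, with adjusted p of 1.00 and 0.976 by edgeR. Of 43 dopamine and cyclic AMP genes 0 were called and 1 had an unadjusted p below 0.05 (median 0.10), of 55 ion channels 0 and 2 (median 0.05), and of 31 glutamate and GABA receptors 0 and 2 (median -0.07). On other lists an unadjusted p below 0.05 by edgeR was found for 6 of 24 G protein-coupled receptors, Grm8 among them, and 4 of 23 striatal transcription factors. It was also found for 3 of 13 ventral and medial striatum genes, 2 of 9 matrix genes and 2 of 6 genes of GABA synthesis and transport. For neuropeptides and for direct pathway genes the count was 1 of 5, and for striosome genes 1 of 7. Some genes are on several lists. Of 8 immediate early genes 0 were called and 0 had an unadjusted p below 0.05. Fos was at 13.4, 13.9, 0 and 14.6 CPM, which the 17 nude nuclei could not separate from 0.

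Some genes on these lists, picked after their values were seen, had groups that did not overlap but did not pass the adjusted threshold. Over all 6880 tested genes, 1062 had nude and BALB/c both above C57J and 1349 both below, so groups without overlap were common. Htr2a, an excitatory serotonin receptor, was at 15.4, 24.4, 71.3 and 57.1 CPM, with a log2 fold change of 1.78 ± 0.41 and an adjusted p of 0.165 by edgeR. Htr7, another serotonin receptor, was at 23.0, 20.9, 64.2 and 49.1 CPM (1.25). Hap1, a huntingtin-associated protein, was at 202, 174, 114 and 99.5 CPM (-0.86), and Gabrg1, a GABA-A receptor subunit, at 110, 90.4, 49.9 and 47.8 CPM (-1.07). The nude values of Htr2a and Htr7 are sums of few UMIs, since 3 UMIs were worth 21.4 CPM in that library. Of the tested markers of other cells 0 were called by edgeR or DESeq2, and 4 had an unadjusted p below 0.05 by edgeR, all lower in nude and BALB/c. These 4 were 1 of 3 oligodendrocyte, 1 of 3 astrocyte, 1 of 7 LS neuron and 1 of 2 neuroblast markers. Over all tested genes the share at that p was 5.70%. Median log2 fold changes of the tested markers were -0.76 over 3 oligodendrocyte markers, -0.48 over 3 astrocyte markers, -0.47 over 7 LS neuron markers, -0.12 over 2 neuroblast markers, -0.08 for the 1 interneuron marker and 0.54 for the 1 oligodendrocyte precursor marker. Ano2, on the LS list, had a log2 fold change of -1.17 with an adjusted p of 0.531 by edgeR. The part of such RNA in the other contrasts was not tested.

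The difference of the background contrast between Drd2 and Drd1 nuclei was tested next, as the rule chose the classes within each library and did not use the background. The receptor limits were met at different depths in the libraries. The thinned fit given with the counts kept the nuclei chosen at full depth, so the part of those limits in these differences was not tested. Of 9341 genes, 9 were called (0.0963%) by the edgeR quasi-likelihood test of the interaction with the library as a term, 8 with a contrast more positive in Drd2 nuclei and Grm8 with one more negative. Foxp2 (GRCm38 chr6:14901349-15441977, plus strand), a forkhead factor that is high in direct pathway neurons, had the lowest adjusted p together with Grm8. It was at 315, 261, 820 and 445 CPM in Drd2 nuclei and at 1485, 1131, 968 and 1023 CPM in Drd1 nuclei, so that the gap between the classes was narrower in nude and BALB/c than in C57J, with a difference of 1.43 ± 0.20 and an adjusted p of 4.8e-06 by edgeR. Within Drd2 nuclei alone the log2 fold change of Foxp2 was 1.08 ± 0.27 with an adjusted p of 0.206. Foxp2 was found in 93 of 133, 30 of 53, 16 of 17 and 43 of 60 Drd2 nuclei, and 1 marked doublet held 48 of the 115 nude UMIs. Without the highest nucleus of each library the level was 287, 213, 554 and 406 CPM. The Foxp2 difference kept its call with marked doublets left out (1.12), without the nucleus of most UMIs in each library (1.19) and without any of the 4 libraries (1.06 to 1.98), and was 1.27 and not called after thinning. For Grm8 the difference was -1.82 ± 0.26 with the same adjusted p, and -1.06 and not called without marked doublets.

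The other 5 named genes rested on few nuclei or 1 library. Sema3e, a secreted axon guidance protein, was at 30.7, 45.2, 28.5 and 161 CPM in Drd2 nuclei and 84.9, 54.4, 39.7 and 75.9 CPM in Drd1 nuclei, a difference of 2.11 ± 0.37 (adjusted p of 3.6e-04 by edgeR) that was 0.70 and not called without BALB/c. Nrp2, a receptor for class 3 semaphorins, was at 22.1, 20.9, 157 and 62.4 CPM against 68.0, 82.7, 108 and 67.2 CPM, with 23 of 47 BALB/c UMIs in 1 nucleus and 9 of 22 nude UMIs in 1 marked doublet. The Nrp2 difference of 1.88 was not called without the nucleus of most UMIs in each library (1.63), without C57J 1 (2.14) or without C57J 2 (1.78). Alk, a receptor tyrosine kinase, was at 54.7, 76.5, 99.8 and 206 CPM against 222, 215, 168 and 220 CPM, with 12 of 14 nude UMIs in 1 nucleus. Among these 3 genes Sema3e and Alk were highest in BALB/c and Nrp2 in nude. Mir670hg, a noncoding host gene, was at 38.4, 73.1, 92.7 and 138 CPM against 110, 94.6, 84.2 and 68.8 CPM, with 11 of 13 nude UMIs in 1 marked doublet. Sorcs1, a sortilin-family sorting receptor, was at 271, 240, 1005 and 459 CPM against 766, 647, 778 and 760 CPM, with 77 of 141 nude UMIs in that same nucleus and an oligodendrocyte level of 822 to 920 CPM. Without the nucleus of most UMIs in each library the Sorcs1 difference was 0.58 and not called. Without BALB/c the differences of Alk (1.13) and Mir670hg (1.32) were not called.

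The count of 9 was 2 (Foxp2 and Grm8) without C57J 1, 41 without nude, 26 without BALB/c and 9 without C57J 2. With marked doublets removed 15 genes were called, 8 of them among the 9, and without the nucleus of most UMIs 13, 6 of them among the 9. After thinning to 2000 UMIs per nucleus 0 were called, with 193 at an unadjusted p below 0.05.

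**Figure D5:**
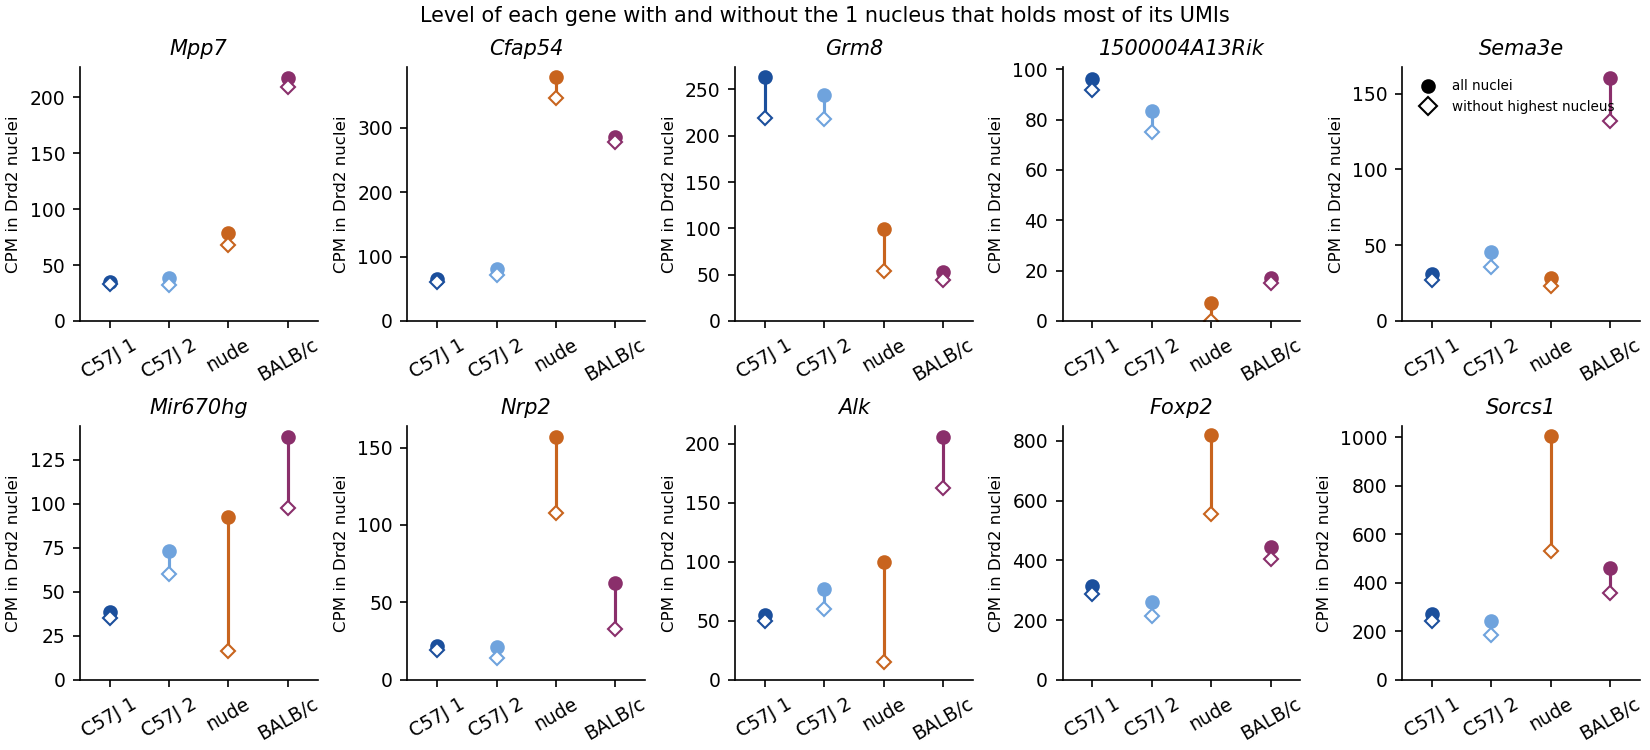
Level (CPM, y axis from 0) in the Drd2 nuclei of each library for the 4 genes called between backgrounds and the named genes called in the difference from Drd1 nuclei. Values are given with all nuclei (filled circles) and without the 1 nucleus that holds most UMIs of that gene (open diamonds). In the nude library Sorcs1 falls from 1005 to 529 CPM and Alk from 99.8 to 15.3 CPM, while Cfap54 stays at 346 CPM.

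Against LS neurons, 22 of 16777 genes were called (0.131%) by the same edgeR test of the interaction, 12 with a more positive and 10 with a more negative contrast in Drd2 nuclei. Foxp2 and Grm8 were called here also, with 1.45 ± 0.22 (adjusted p of 3.9e-07) and -2.08 ± 0.28 (adjusted p of 2.9e-09), and both comparisons share the same Drd2 nuclei. Vav3, a guanine nucleotide exchange factor, was at 120, 132, 78.4 and 45.1 CPM in Drd2 nuclei and at 19.6, 15.7, 28.1 and 37.1 CPM in LS neurons. The values were lower in nude and BALB/c than in C57J in Drd2 nuclei and higher in LS neurons, with a difference of -2.21 ± 0.30 and an adjusted p of 2.9e-09 by edgeR, and no Vav3 count rested on 1 nucleus, since the highest held 9 of 125, 3 of 38, 2 of 11 and 4 of 34 UMIs. Without BALB/c the Vav3 difference was -1.35 and not called. 6530403H02Rik, a noncoding RNA that was high in both striatal classes, was at 160, 163, 228 and 333 CPM against 4.13 to 7.37 CPM in LS neurons, with a difference of 1.43 ± 0.25 (adjusted p of 3.0e-05 by edgeR), and 0.57 without BALB/c. Against Drd1 nuclei the differences of Vav3 (-0.52 ± 0.41) and 6530403H02Rik (0.82 ± 0.23) were not called. Nor were those of Fgf10 (-2.72), Plcz1 (-3.98), Col23a1 (-3.33), Adamtsl1 (-1.23), Tac1 (0.99) and Soat1 (2.50), which are described next against LS neurons.

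Fgf10, a growth factor, was at 41.3, 38.3, 7.13 and 2.65 CPM in Drd2 nuclei and at 9.76, 12.1, 9.22 and 7.49 CPM in LS neurons, a difference of -3.16 ± 0.78 (adjusted p of 0.0408 by edgeR). The nude and BALB/c values were 1 and 2 UMIs, and the Fgf10 call was lost under 6 alternatives, among them the removal of marked doublets (-3.45). Plcz1 was counted at 17, 7, 0 and 0 UMIs, and the fitted difference for a gene at 0 in a group depends on the prior count and is no bound. Col23a1 was at 30.7, 6.96, 7.13 and 0 CPM and Adamtsl1 at 173, 129, 114 and 25.2 CPM, both below the oligodendrocyte levels of 38.5 to 76.4 and 107 to 367 CPM. Without marked doublets their differences, -4.07 and -1.47, were -1.81 and -0.57 and not called, and 49 of 180, 19 of 37 and 13 of 16 Adamtsl1 UMIs of C57J 1, C57J 2 and nude came from 1 marked doublet in each library. Tac1 had a difference of 2.07 ± 0.44 (adjusted p of 0.00459) that was -0.93 without BALB/c, and Soat1 one of 2.23 ± 0.53 (adjusted p of 0.0207) with 35 of 42 BALB/c UMIs in 1 nucleus. Nrp2 had a difference of 1.44 ± 0.36 (adjusted p of 0.0408) that was called with RLE factors and without BALB/c (2.41) and lost in the other alternatives, with 0.99 without nude and 1.10 without the nucleus of most UMIs. Foxp2, Grm8 and Vav3 were the named genes of this comparison that kept their call without C57J 1. The count of 22 was 5 without C57J 1, 6 without C57J 2, 62 without nude and 26 without BALB/c.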

How the data were processed

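Single-nucleus RNA libraries (10x Genomics Chromium) were measured from the LS of 2 C57J, 1 nude and 1 BALB/c sample. The authors deposited whole-number UMI counts per gene and barcode, not normalized, with Cell Ranger 7.0.1 and mm10 named in the submitters' processing notes, and whether intronic reads were counted is not given in the sources used here. The deposited matrices hold barcodes before the removal of doublets that the study describes, and 0 columns of other samples were left unused.

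Nuclei were selected as the report states, and the members, gene lists and tests were chosen with earlier results of these data known. Oligodendrocytes held at least 2 UMIs of Mog and 1 of Mag. UMIs were summed per library and class. Differences were tested with the edgeR 4.0.16 quasi-likelihood test (filterByExpr, TMM, Benjamini-Hochberg adjustment, R 4.3.3), with DESeq2 1.42.0, RLE factors, no filter, thinning to 2000 UMIs, removal of doublets, stricter receptor limits and leaving out each library as alternatives. The scripts were tested on simulated data. The difference between classes was an interaction with library and class as terms. Doublets were scored with scanpy 1.11.5 (Scrublet, 2 simulated per nucleus, 30 components), and the highest scores of each library were marked at a rate that grows with its number of nuclei.

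Named genes were, in the background contrast, called genes whose groups do not overlap (up to 10 in each direction, and up to 3 predicted genes), up to 6 in each direction in the differences, and, in the ratios, the 10 highest and 10 lowest (6 and 6 against LS neurons) that kept their direction in all 4 libraries with a mean of at least 50 CPM in the higher class, besides list genes. Ratios are log2 of CPM plus 1. Positions are from GENCODE (GRCm38) and promoters from RefSeq. The Drd2 nuclei held 1042010, 287466, 140294 and 753581 UMIs in all, so that 3 UMIs were worth 2.88, 10.4, 21.4 and 3.98 CPM. Intervals are exact Clopper-Pearson and cover counting error only. The level of 1 oligodendrocyte marker is not reported here.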

Additional observations from a re-analysis of the deposited data

Results flagged for a closer look

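The background contrast, nude and BALB/c against C57J, differed between Drd2 nuclei and another class for 19 gene and class pairs, each by the edgeR interaction test. Against Drd1 nuclei the differences were 2.11 for Sema3e, 2.0 for Mir670hg, 1.88 for Nrp2, 1.66 for Alk, 1.43 for Foxp2, 1.25 for Sorcs1 and -1.82 for Grm8 on the log2 scale. Against LS neurons they were 2.23 for Soat1, 2.07 for Tac1, 1.45 for Foxp2, 1.44 for Nrp2, 1.43 for 6530403H02Rik and 1.4 for Mpp7. On the negative side they were -12.6 for Plcz1, whose nude and BALB/c counts were 0, -4.07 for Col23a1, -3.16 for Fgf10, -2.21 for Vav3, -2.08 for Grm8 and -1.47 for Adamtsl1. Foxp2, Nrp2 and Grm8 appear in both comparisons, which share the Drd2 nuclei, and the Nrp2 call against LS neurons was lost in most alternatives.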

How the results depend on the processing

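Genes called between backgrounds in Drd2 nuclei (2 higher, 2 lower) numbered 1 and 0 with DESeq2, 29 and 21 with no filter on low counts, 4 and 1 with predicted doublets removed, 0 and 0 after thinning to 2000 UMIs (119 at an unadjusted p below 0.05 of 2179 genes tested) and 3 and 10 without the nucleus of most UMIs in each library. Leaving out 1 library gave 0 to 42 higher and 0 to 49 lower, where the lone sample of an arm is assumed to vary like the other groups. Without C57J 2 edgeR called 0 genes, with 350 at an unadjusted p below 0.05. The 9 genes of the difference from Drd1 nuclei became 0 after thinning and 15 without doublets, and 2 to 41 when a library was left out. The 22 of the difference from LS neurons became 0 after thinning (399 at an unadjusted p below 0.05), and 5 to 62 when a library was left out. The share of Drd2 nuclei in C57J minus nude and BALB/c was 0.405 percentage points, 0.0969 after thinning, 0.0410 with at least 2 UMIs of each receptor and 2.64 with nuclei of Rarb and Pde10a as denominator, and 0.152 to 0.658 without a C57J library. The number of Drd1 nuclei per Drd2 nucleus differed by -0.34 between the groups, by -0.58 without doublets, 0.52 with at least 2 UMIs of each receptor, 0.22 with Pde10a at least 6 and Rarb at least 4, and 0.31 after thinning, and by -0.47 to -0.21 without a C57J library. Of the fits for single genes, 375 kept their side of the threshold and direction, 76 were no longer past it, 10 came past it and 5 turned. These 5 were Pbx3 after thinning (-0.26), Bach2 with the receptor limit (-0.32), Ano2 without doublets (0.012), and, against LS neurons without BALB/c, Soat1 (-10.3) and Tac1 (-0.93, against 2.42 without nude). The cause was not tested. Fits without the nucleus of most UMIs, and the removal of doublets in both differences, were chosen after seeing the data. No paired analysis was possible because the replicate numbers of the groups share only the number 1, which marks no common animal or day. The 17 nude nuclei, with 140294 UMIs, limit what any contrast can show. The limit of at least 2 UMIs of each receptor left 2 of them, so a call lost there may reflect the few nuclei.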

Other observations

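Oprm1 and the striosome-matrix gene Epha4, an ephrin receptor, were found together in 25, 10, 3 and 19 of the Drd2 nuclei, and Oprm1 without Epha4 in 7, 3, 2 and 4. Of 9 striosome genes with 10 CPM or more, 1 was higher and 5 lower in Drd2 than in Drd1 nuclei in all 4 libraries, with a median log2 ratio of -0.45, and of 9 matrix genes 2 were higher and 2 lower, with a median of 0.33. Of 16 genes of the ventral and medial striatum, 0 were higher and 3 lower in all 4 libraries. Over 9418 genes at that level, 777 were higher and 1231 lower in all 4 libraries, so the matrix and the ventral and medial counts are small numbers not read as traits of the class. The striosome count is not read as such a trait either, because Pdyn and Asic4 are also on the list of direct pathway genes.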
